A study of Arabidopsis thaliana with 156 samples.

Results

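A set of 15 probe sets stood out in the cauline leaf of an early flowering Arabidopsis thaliana line. The members were selected on group means: each had a mean signal in fully expanded leaf 11 of FRI;flc-3 plants that was at least 2 log2 units above that in leaf 11 of FRI;FLC plants and above that in FRI;flc-3 leaf 9, in experiment 1 and again in experiment 2. The 15 members come from the 19324 probe sets on the arrays, or 19283 without the control probe sets. Of the members, 9 match 1 gene and 6 are not listed in the probe annotation used, so those 6 are named by probe set only. A difference of 1 log2 unit is a 2-fold difference in signal.

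FLC is a repressor of flowering whose activity FRI raises. Plants with both genes stay vegetative for longer and form many rosette leaves, whereas plants without active FLC bolt early. A cauline leaf is a leaf borne on the elongated flowering stem, and it differs from the rosette leaves below it in size and shape. The flowering transition at the shoot tip therefore decides at which leaf position the rosette ends.

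All plants were in the Col-0 background with FRI introgressed from the Sf-2 accession and grew in 16 h days. FRI;flc-3 plants carry the flc-3 allele and are called the mutant here, FRI;FLC plants carry the active gene, and a further FRI;FLC line expresses a target mimic of the microRNA miR156 from the 35S promoter (FRI;FLC;35S::miR156mimic). The organs were fully expanded leaves 1/2, 3, 5, 7, 9 and 11 of both genotypes in both experiments, leaves 3, 5 and 7 past full expansion in experiment 2, 1 mm primordia of leaves 1/2 to 11 in experiment 1, and shoot apices in experiment 2. The 3 groups that chose the members were, in experiment 1, FRI;flc-3 leaf 11 at day 30, FRI;FLC leaf 11 at day 34 and FRI;flc-3 leaf 9 at day 30. In experiment 2 the days were 32, 33 and 32. The sample labels call the fully expanded leaf 11 cauline in FRI;flc-3 and rosette in FRI;FLC, and these are called the cauline leaf and rosette leaf 11. At this position leaf type and genotype cannot be told apart. Each group has 3 arrays, apart from day 6 apices, with 2 arrays of FRI;FLC and 1 of the mutant, and each array holds a separate pool of 9 leaves (18 for leaves 1/2), 30 primordia (60 for leaves 1/2) or between 24 and 120 apices. In such bulk samples fewer cells of a type and less RNA per cell cannot be told apart, and p-values measure the spread between pools.

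The 156 arrays had median signals between 6.40 and 6.92, and arrays of a group correlated at 0.95 or more over all probe sets. The lowest correlation, 0.954, was that of the FRI;FLC apices at day 6. Of all values, 10% lay below 2.03 log2, and differences that start from such signals have an uncertain size. The 4 photosynthesis genes measured, of 26 listed, averaged between 12.29 and 12.60 per array in the cauline leaf of experiment 1, against 12.19 to 12.89 in rosette leaf 11 and 12.76 to 12.98 in mutant leaf 9. In experiment 1, 2 of the 4 were called lower than in mutant leaf 9, RCA (-0.64 ± 0.22 SE, adjusted p = 0.0153) and PRK (-0.96 ± 0.35, adjusted p = 0.022), and 0 were called against rosette leaf 11 in either experiment. Against mutant leaf 9 in experiment 2, 0 were called. The share of all probe sets called lower than in mutant leaf 9 is not given here, so these 2 calls cannot be set against it. Lists of other organs that a leaf 11 collection could contain had few measured genes. UFO, the 1 floral organ identity gene of 18 listed, stayed between 1.69 and 1.99 in the cauline leaf of experiment 1, and A9, the 1 anther gene of 16, between 2.18 and 2.44. None of these, nor the 3 meristem and organ boundary genes and the 1 stem wall gene, was called higher in the cauline leaf than in either other group in either experiment, where 24.5% and 13.5% of all probe sets were called higher than in rosette leaf 11 and 23.2% and 2.14% higher than in mutant leaf 9. These lists cover few genes of each organ.

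The rule was met by 182 probe sets in experiment 1 and by 58 in experiment 2, and the 15 members are 8.24% of the larger set and 25.9% of the smaller. The members' median difference from rosette leaf 11 was 6.12 in experiment 1 and 4.51 in experiment 2, and that from mutant leaf 9 was 4.14 and 2.98. Over all probe sets the corresponding medians were 0.04, 0.01, 0.05 and -0.02. A difference of 2 log2 or more from rosette leaf 11 was shown by 2.74% of all probe sets in experiment 1 and 1.83% in experiment 2, and one from mutant leaf 9 by 1.15% and 0.414%. These differences chose the members and are given as description only. Every cauline array of all 15 members lay above every array of rosette leaf 11 and of mutant leaf 9 in its experiment. Of all probe sets 21.6% did so against rosette leaf 11 in experiment 1 and 19.3% in experiment 2, and 23.8% and 9.30% against mutant leaf 9. For the other comparisons below this share is not given, so a lack of overlap there is description only. A further 167 probe sets met the rule in experiment 1 only. In experiment 2, 130 of them had both differences above 0 and 55 differed by at least 2 log2 from rosette leaf 11, but only 1 of the 167 did so from mutant leaf 9. Another 43 met the rule in experiment 2 only, and 22 of these had both differences above 0 in experiment 1. Their median differences in experiment 1 were 0.25 from rosette leaf 11 and 0.23 from mutant leaf 9.

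**Figure D1:**
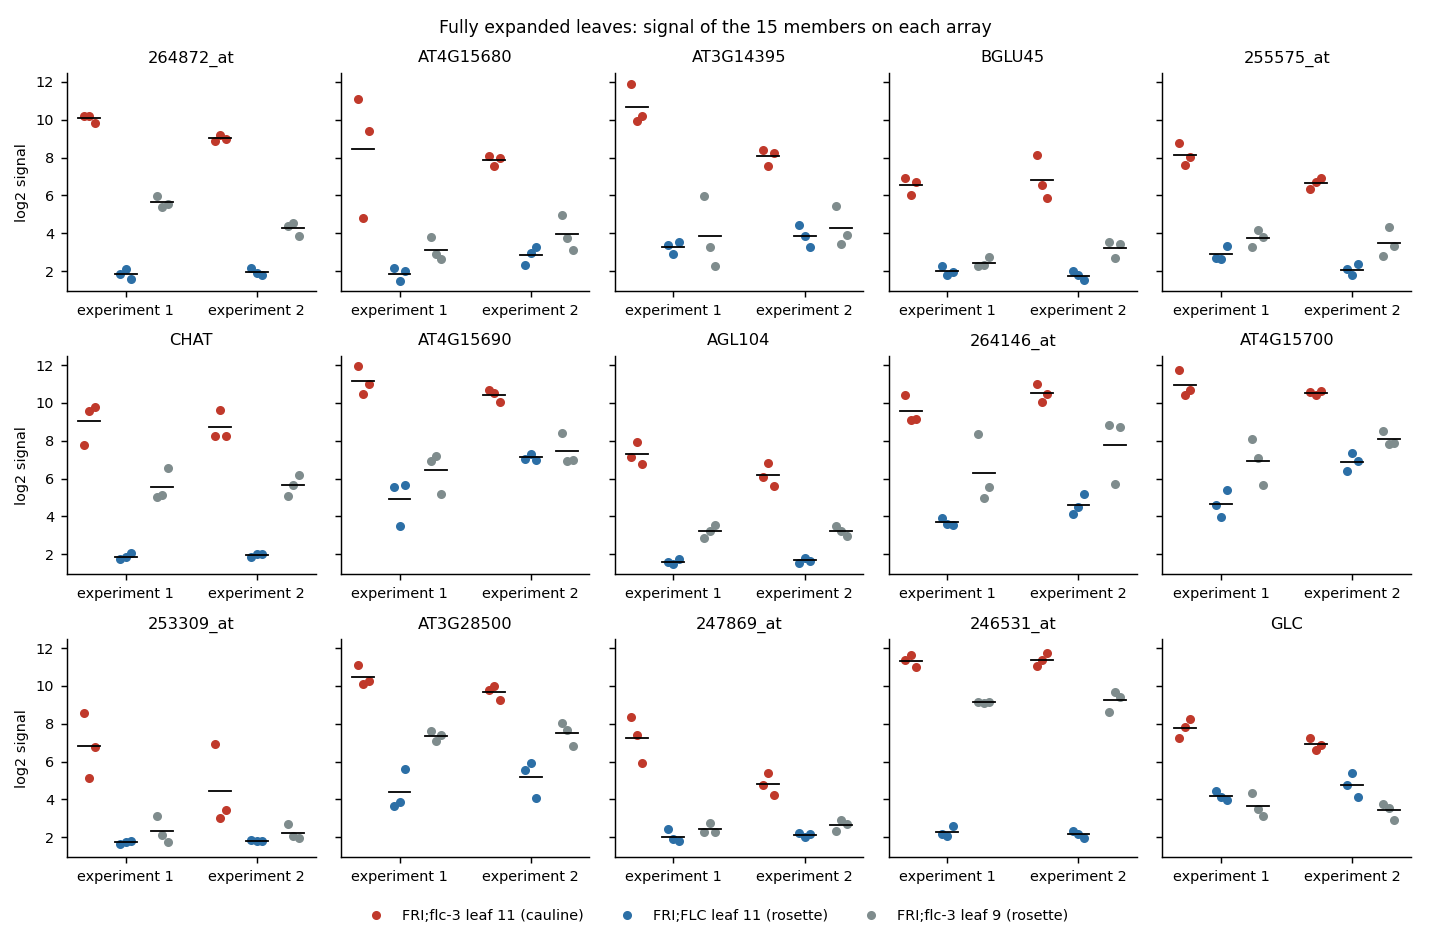
Log2 signal of the 15 members on each array of the 3 leaf groups that chose them, in experiments 1 and 2, with 1 point per array and bars at group means. Every cauline point lies above the rosette leaf 11 and mutant leaf 9 points of its experiment, with a wide spread for AT4G15680 in experiment 1 and 253309_at in experiment 2.

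The member with the widest margin was 264872_at, which has no gene in the annotation used. It read 10.22, 10.21 and 9.83 in the cauline leaf of experiment 1, against 1.82, 2.13 and 1.59 in rosette leaf 11 and 5.98, 5.40 and 5.57 in mutant leaf 9. In experiment 2 it read 8.89, 9.20 and 9.01 in the cauline leaf, against 2.18, 1.91 and 1.82 in rosette leaf 11 and 4.40, 4.55 and 3.88 in mutant leaf 9. Its 3 groups were well separated in both experiments, with mutant leaf 9 in between. Its smallest difference of the 4 was 4.44, the largest such value among the members.

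CHAT (AT3G03480) encodes the acetyltransferase that forms hexenyl acetate, a green leaf volatile. It read 7.79, 9.58 and 9.76 in the cauline leaf of experiment 1, against 1.72, 1.83 and 2.06 in rosette leaf 11 and 5.00, 5.13 and 6.56 in mutant leaf 9. Experiment 2 gave 8.26, 9.65 and 8.27 in the cauline leaf, against 1.83, 2.02 and 2.04 in rosette leaf 11. Rosette leaf 11 was thus at the floor for CHAT in both experiments, while mutant leaf 9 already had an intermediate signal.

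BGLU45 (AT1G61810), a beta-glucosidase that acts on the glucosides of lignin precursors, read 6.90, 6.03 and 6.72 in the cauline leaf of experiment 1, against 2.24, 1.80 and 1.93 in rosette leaf 11 and 2.26, 2.34 and 2.75 in mutant leaf 9. In experiment 2 it read 8.14, 6.54 and 5.84 in the cauline leaf, against 1.99, 1.77 and 1.54 in rosette leaf 11. AGL104 (AT1G22130), a MADS-box transcription factor known from maturing pollen, read 7.15, 7.93 and 6.74 in the cauline leaf of experiment 1, against 1.58, 1.46 and 1.77 in rosette leaf 11 and 2.86, 3.22 and 3.53 in mutant leaf 9. For both genes the cauline arrays lay above all arrays of both rosette groups. HCT, the 1 lignin gene measured of 12 listed, differed by -0.19 ± 0.22 (SE) from rosette leaf 11 in experiment 1 and by 0.32 ± 0.22 in experiment 2, and neither difference was called. It was called lower than in mutant leaf 9 in experiment 1 (-0.76 ± 0.22, adjusted p = 0.00392) and not called in experiment 2 (-0.11 ± 0.22).

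AT4G15680, AT4G15690 and AT4G15700 are CC-type glutaredoxins, small redox proteins of a plant-specific class, and they are neighbours on chromosome 4. AT4G15690 read 11.94, 10.48 and 10.97 in the cauline leaf of experiment 1, against 5.57, 3.49 and 5.63 in rosette leaf 11 and 6.94, 7.17 and 5.21 in mutant leaf 9. AT4G15680 was the most uneven, with 11.10, 4.83 and 9.40 in the cauline leaf of experiment 1, against 2.15, 1.47 and 1.98 in rosette leaf 11. Its 3 cauline arrays of experiment 2, at 8.09, 7.56 and 8.00, lay close together. A further gene of the cluster, AT4G15660, missed the rule by its smallest difference of 1.76 and followed AT4G15690 over the 53 group means at a Pearson r of 0.95. The members of this cluster are similar in sequence, and how far each probe set hybridises to RNA of its neighbours was not tested, so the separate values are uncertain.

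GLC (AT1G65450), an acyltransferase of the BAHD family known from its role in the female gametophyte, had the smallest margin of the members. It read 7.26, 6.64 and 6.86 in the cauline leaf of experiment 2, against 4.78, 5.40 and 4.14 in rosette leaf 11, a difference in means of 2.14. The other GLC probe set, 264163_at, had differences from rosette leaf 11 of 2.06 in experiment 1 and 0.95 in experiment 2, so it missed the rule. Next to GLC inside the threshold stood 246531_at, with a smallest difference of 2.15, and just outside it were 247553_at with 1.98 and 266156_at with 1.94.

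AT3G28500, a protein of the acidic ribosomal stalk family, read 11.12, 10.11 and 10.25 in the cauline leaf of experiment 1, against 3.63, 3.88 and 5.61 in rosette leaf 11 and 7.62, 7.06 and 7.40 in mutant leaf 9. AT3G14395 read 11.90, 9.91 and 10.22 in the cauline leaf of that experiment, against 3.38, 2.89 and 3.51 in rosette leaf 11 and 5.96, 3.29 and 2.27 in mutant leaf 9. Both were separated from either rosette group without overlap. Among the unnamed members, 253309_at read 6.94, 3.02 and 3.44 in the cauline leaf of experiment 2, so that a single array made most of its difference from the 1.86, 1.79 and 1.80 of rosette leaf 11.

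**Figure D2:**
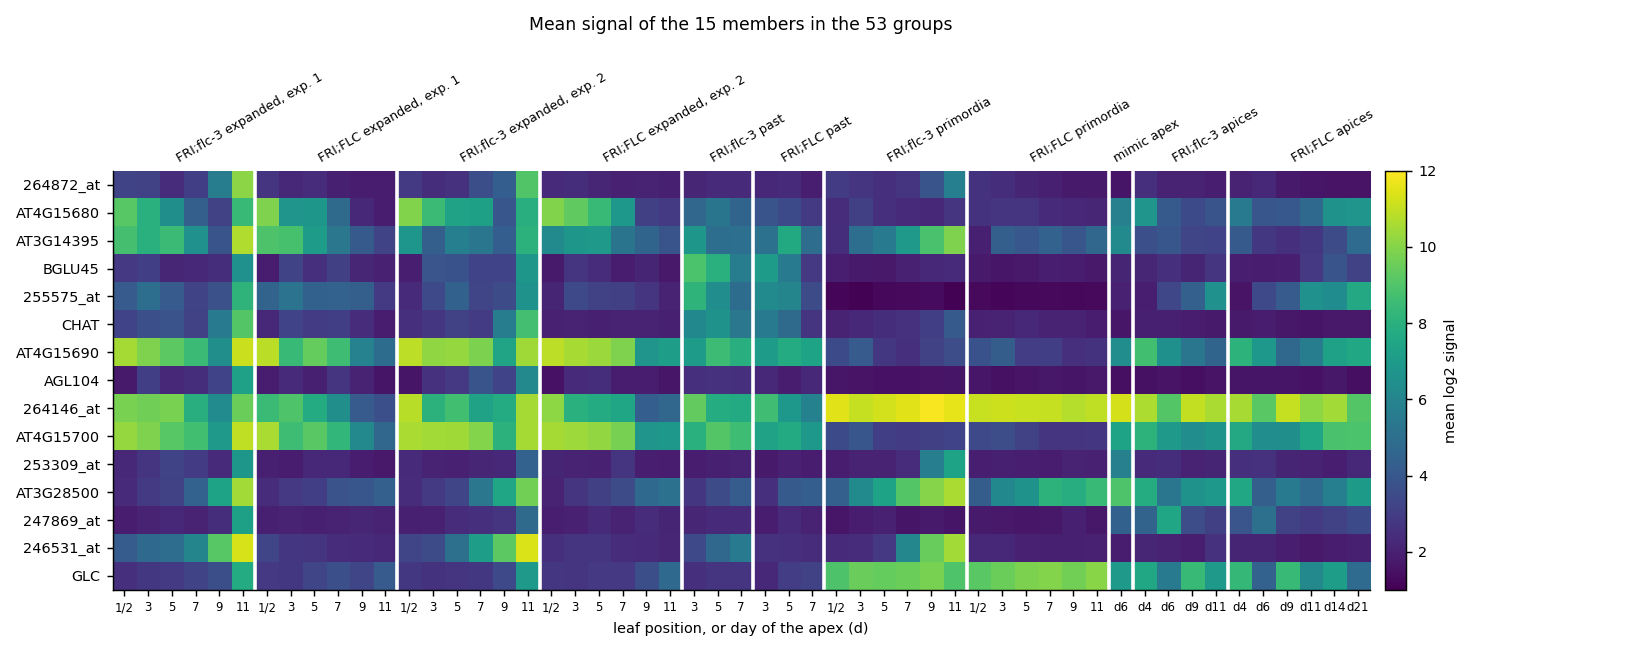
Mean log2 signal (colour) of the 15 members in the 53 groups, ordered by organ, genotype and leaf position or day. The cauline leaf columns are brighter than those of rosette leaf 11 and mutant leaf 9 in all 15 members. GLC and 264146_at are also bright in all primordia, and AT3G28500 in those of leaves 7, 9 and 11. In mutant primordia of leaves 9 and 11, 246531_at and AT3G14395 are bright too. AGL104 is dark in the primordia and the apices.

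The members did not share 1 pattern outside the leaves that chose them. Over the 53 group means, the 105 pairs of members correlated at between -0.77 and 0.97, with a median r of 0.26. In 4 members, 264872_at, CHAT, AGL104 and 246531_at, the cauline groups of both experiments were the 2 highest of the 53 groups. In 10 members they were the 2 highest of the 24 groups of expanded leaves, and in 8 members some other group of the series was the highest. The probe sets most like 264872_at were 263295_at (r = 0.89), AGL71 (r = 0.87), 246531_at (r = 0.87), AGL104 (r = 0.84) and AT2G47050 (r = 0.81), over 53 group means that share their arrays among all probe sets. AGL71, a MADS-box gene of the floral transition list, differed from rosette leaf 11 by 3.92 in experiment 1 and 1.15 in experiment 2. AGL42 of the same list differed by 6.69 and 7.10, but from mutant leaf 9 by 1.72 and 1.89 only. Other genes of the list went the other way. Of its 6 measured genes, of 11 listed, 2 were called higher and 4 lower than in rosette leaf 11 in experiment 1. In experiment 2, 2 were called higher and 2 lower. The shares of all probe sets were 24.5% higher and 23.3% lower, then 13.5% and 15.9%. AGL24 (-1.91 and -3.8) and AGL19 (-0.78 and -0.96) were lower in both experiments.

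Primordia give a measurement the rule did not use. In 1 mm primordia of leaf 11 at day 18, 9 of the 15 members were called higher in FRI;flc-3 than in FRI;FLC, and 1 lower, by limma at an adjusted p under 0.05 over all probe sets. Of all probe sets 17.3% were called higher and 14.6% lower. The largest difference was that of 246531_at, which read 10.53, 10.49 and 10.46 in mutant primordia, against 2.18, 1.77 and 2.09 in FRI;FLC primordia (difference 8.48 ± 0.17 SE, adjusted p = 3.35e-31). The arrays of the genotypes lay far apart, and FRI;FLC was at the floor.

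A further 3 members differed by nearly 4 log2 units or more in the leaf 11 primordium. The signal of 253309_at was 7.08, 7.00 and 8.04 in mutant primordia, against 2.03, 2.02 and 2.04 in FRI;FLC (5.34 ± 0.20, adjusted p = 1.34e-22). AT3G14395 read 9.97, 9.73 and 9.91 in mutant primordia, against 4.85, 4.38 and 4.65 in FRI;FLC (5.24 ± 0.21, adjusted p = 1.71e-21). None of these arrays overlapped between genotypes. For 264872_at the values were 5.68, 4.87 and 6.66 in mutant primordia, against 1.79, 1.84 and 1.78 in FRI;FLC (3.93 ± 0.22, adjusted p = 8.31e-17). CHAT (2.22 ± 0.16) and AT3G28500 (2.18 ± 0.23) were also called higher, as were AT4G15690 (1.0 ± 0.25), 264146_at (0.67 ± 0.19) and BGLU45 (0.59 ± 0.13). BGLU45 was near the floor in both genotypes, at means of 2.33 in the mutant and 1.74 in FRI;FLC. Without replicate 3 the calls of AT4G15690 (0.73, adjusted p = 0.0686) and 264146_at (0.52, adjusted p = 0.103) were lost.

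GLC went the other way in this organ. It read 8.95, 9.23 and 8.67 in mutant leaf 11 primordia, against 10.10, 10.06 and 9.94 in FRI;FLC (-1.08 ± 0.17, adjusted p = 6.49e-06), without overlap. The 5 members not called in the leaf 11 primordium were AT4G15680, AT4G15700, AGL104, 255575_at and 247869_at. AGL104 read 1.71, 1.66 and 1.55 in mutant primordia, against 1.83, 1.72 and 1.73 in FRI;FLC, close to the lowest signals on the arrays.

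The genotype difference depended on leaf position. Against the mean genotype difference at leaves 3, 5 and 7, that of the leaf 11 primordium was more positive in 8 members and more negative in 1, where 13.2% of all probe sets were called in the positive direction and 8.98% in the negative. In 246531_at the interaction was 6.79 ± 0.19 and in 253309_at 5.08 ± 0.23. Between leaf 11 and leaf 9 primordia of the mutant, 5 members were called higher in leaf 11 (4.01% of all probe sets) and 1 lower (3.00%). The 5 were 264872_at (1.88 ± 0.22), 253309_at (1.68 ± 0.20), CHAT (1.04 ± 0.16), 246531_at (1.04 ± 0.17) and AT3G14395 (1.04 ± 0.21), and the 1 was GLC (-0.85 ± 0.17). Without replicate 3, AT3G14395 lost its call (0.89, adjusted p = 0.0699).

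The rise along the shoot was already present below leaf 11. The comparisons of leaf 9 with leaves 1/2 in primordia were added after the values had been seen. In FRI;flc-3, 7 members were called higher in leaf 9 (14.5% of all probe sets) and 0 lower (14.5%). In FRI;FLC, 3 were called higher (17.6%) and 3 lower (16.9%). The mean of 246531_at in mutant primordia was 2.37, 2.40, 2.82, 6.08, 9.45 and 10.49 in leaves 1/2, 3, 5, 7, 9 and 11, while in FRI;FLC primordia it stayed between 1.97 and 2.26. In 253309_at the rise came later, with means of 2.39, 5.69 and 7.37 in mutant leaves 7, 9 and 11. AT3G28500 rose with position in primordia of either genotype, by 5.61 ± 0.23 in the mutant and 3.58 ± 0.23 in FRI;FLC between leaves 1/2 and leaf 9. AT3G14395 did so by 6.38 ± 0.21 in the mutant and 1.97 ± 0.21 in FRI;FLC. In 264872_at leaf 9 was above leaves 1/2 by 0.92 ± 0.22 in the mutant and below them by the same comparison in FRI;FLC (-0.80 ± 0.22), and both calls were lost without replicate 1 (0.68 with adjusted p = 0.123, and -0.76 with adjusted p = 0.0689).

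**Figure D3:**
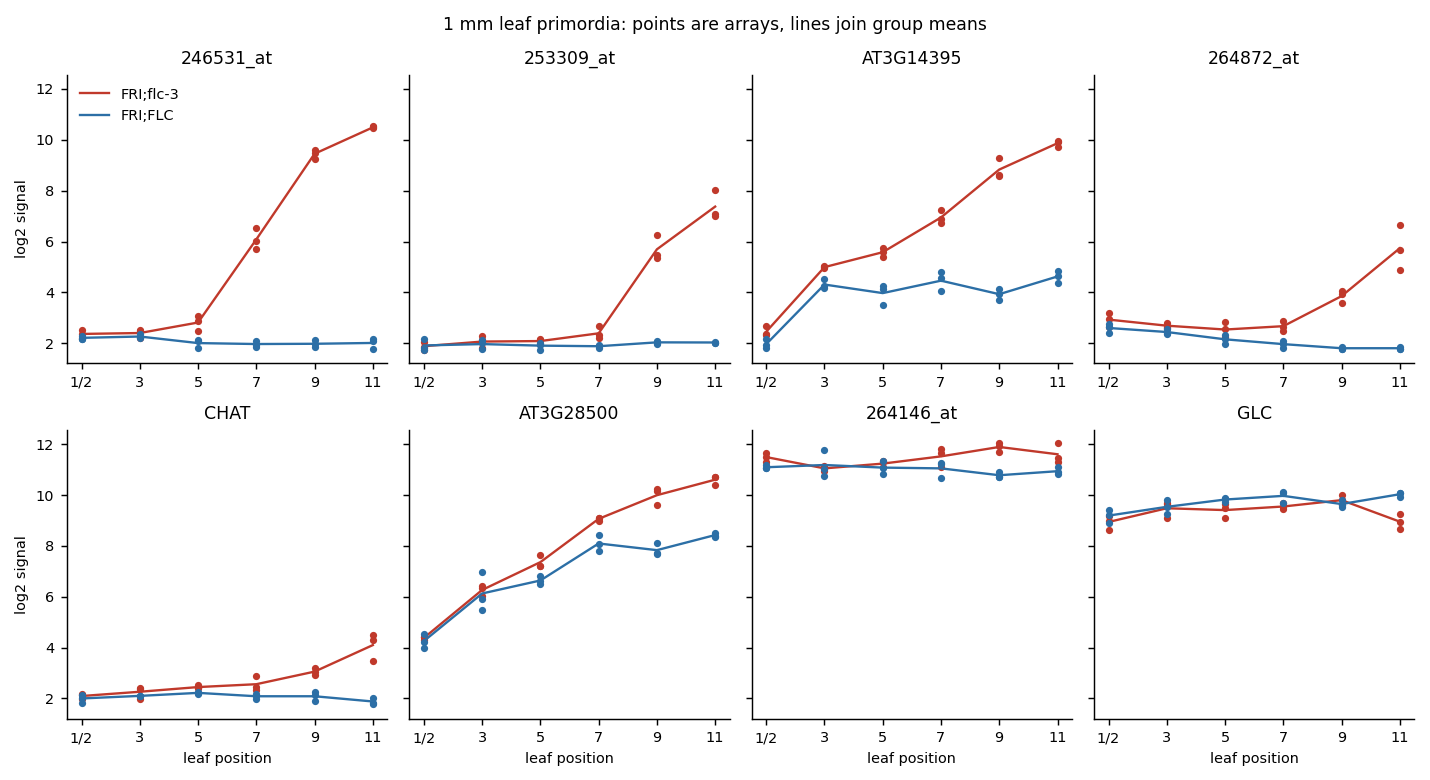
Log2 signal of 8 members in 1 mm primordia against leaf position, with points for arrays and lines through group means, FRI;flc-3 in red and FRI;FLC in blue. From leaf 5 to leaf 11, 246531_at climbs in the mutant to a mean of 10.49 while it stays near 2 in FRI;FLC, and GLC and 264146_at are high in all primordia.

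Rosette leaves below the cauline leaf were compared at full expansion. In experiment 1, leaves 3, 5 and 7 were taken at days 21, 24 and 26 in the mutant. Those of FRI;FLC were taken at days 23, 26 and 29, so genotype and plant age cannot be told apart there. In experiment 2 the days were 23, 26 and 29 in each genotype. In leaves 3, 5 and 7, averaged over positions and experiments, 6 members were called higher in FRI;flc-3 than in FRI;FLC (8.37% of all probe sets) and 0 lower (8.99%). In 246531_at the lowest, median and highest of 18 arrays were 3.48, 4.93 and 7.90 in the mutant, against 2.18, 2.53 and 2.97 in FRI;FLC (2.65 ± 0.12, adjusted p = 3.23e-28). These ranges did not overlap, and the difference was 2.61 ± 0.17 within experiment 1 and 2.69 ± 0.17 within experiment 2. The other 5 differences were smaller and their ranges overlapped. Within experiment 1, 4 members were called higher (7.30% of all probe sets), and within experiment 2, 5 members (3.20%). For 264872_at the lowest, median and highest arrays were 2.17, 2.70 and 3.91 in the mutant, against 1.83, 2.17 and 2.68 in FRI;FLC (0.64 ± 0.09), and it was called within each experiment (0.63 ± 0.13 and 0.66 ± 0.13). AGL104 (0.54 ± 0.12) and AT3G28500 (0.51 ± 0.16) were called within experiment 2 only (0.85 ± 0.17 and 0.73 ± 0.22) and not within experiment 1 (0.24 ± 0.17 and 0.29 ± 0.22). In 264146_at (0.84 ± 0.28) the call was made within experiment 1 only, and in CHAT (0.71 ± 0.22) within neither. The call of CHAT was lost without replicate 1 (0.59, adjusted p = 0.129) or 2 (0.82, adjusted p = 0.0599), as was that of AT3G28500 (0.47 with adjusted p = 0.163, and 0.56 with adjusted p = 0.0986). That of 264146_at was lost without replicate 2 (0.83, adjusted p = 0.127) or 3 (0.81, adjusted p = 0.182).

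Between leaf 7 and leaves 1/2 at full expansion, 3 members were called higher (19.3% of all probe sets) and 5 lower (18.5%) in the mutant, and 3 higher (17.6%) and 7 lower (16.6%) in FRI;FLC. Within experiment 1, 3 members were called lower in the mutant (1.13% of all probe sets) and 7 in FRI;FLC (9.25%). Within experiment 2, 2 members were called lower in the mutant (23.5%) and 2 in FRI;FLC (17.0%). Over both experiments, the higher ones in the mutant were 246531_at, AT3G28500 and AGL104. The lowest, median and highest of the 6 arrays of AT3G28500 were 4.32, 4.85 and 5.95 in mutant leaf 7, against 2.02, 2.35 and 2.86 in leaves 1/2 (2.57 ± 0.27, adjusted p = 1.22e-11). In FRI;FLC its difference was 1.45 ± 0.27. The rise of AT3G28500 with position thus appeared in expanded leaves of either genotype without reaching the cauline level. For 246531_at the difference was 2.84 ± 0.21 in the mutant and -0.52 ± 0.21 in FRI;FLC, and the call in FRI;FLC was lost when any of replicates 1 to 3 was left out.

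The glutaredoxins, and with them 264146_at and AT3G14395, followed an opposite course below the cauline leaf. In experiment 1 the mean of AT4G15680 in the mutant was 9.12, 8.00, 6.47, 4.33 and 3.12 in leaves 1/2, 3, 5, 7 and 9 and 8.44 in the cauline leaf 11, while FRI;FLC went on down to 1.86 in leaf 11. AT4G15690 was 10.51 in mutant leaves 1/2, 6.44 in leaf 9 and 11.13 in the cauline leaf. From leaves 1/2 to leaf 7 AT4G15680 fell by 3.72 on the log2 scale in the mutant (SE 0.52, adjusted p = 3.79e-08) and by 4.06 in FRI;FLC (SE 0.52, adjusted p = 2.93e-09), and was called within each experiment. In the mutant 1.13% of all probe sets were called lower within experiment 1 and 23.5% within experiment 2, and in FRI;FLC 9.25% and 17.0%. AT4G15690 (-1.54 ± 0.39 in the mutant) and AT4G15700 (-1.14 ± 0.31) were called within experiment 1 only, and their mutant calls were lost without replicate 1 (-1.25 with adjusted p = 0.0613, and -1.0 with adjusted p = 0.0593). The signal of 264146_at fell by 2.69 in the mutant and 2.35 in FRI;FLC. In the mutant it was called within experiment 2 (-3.46 ± 0.69) and not within experiment 1 (-1.92 ± 0.69, adjusted p = 0.128). AT3G14395 was also called lower in mutant leaf 7 than in leaves 1/2, a call lost without replicate 3 (-1.39, adjusted p = 0.111). Within either experiment alone it was not called. It averaged 8.95 in FRI;FLC leaves 1/2 of experiment 1. Its cauline group of experiment 2 ranked 6 among the 24 groups of expanded leaves.

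**Figure D4:**
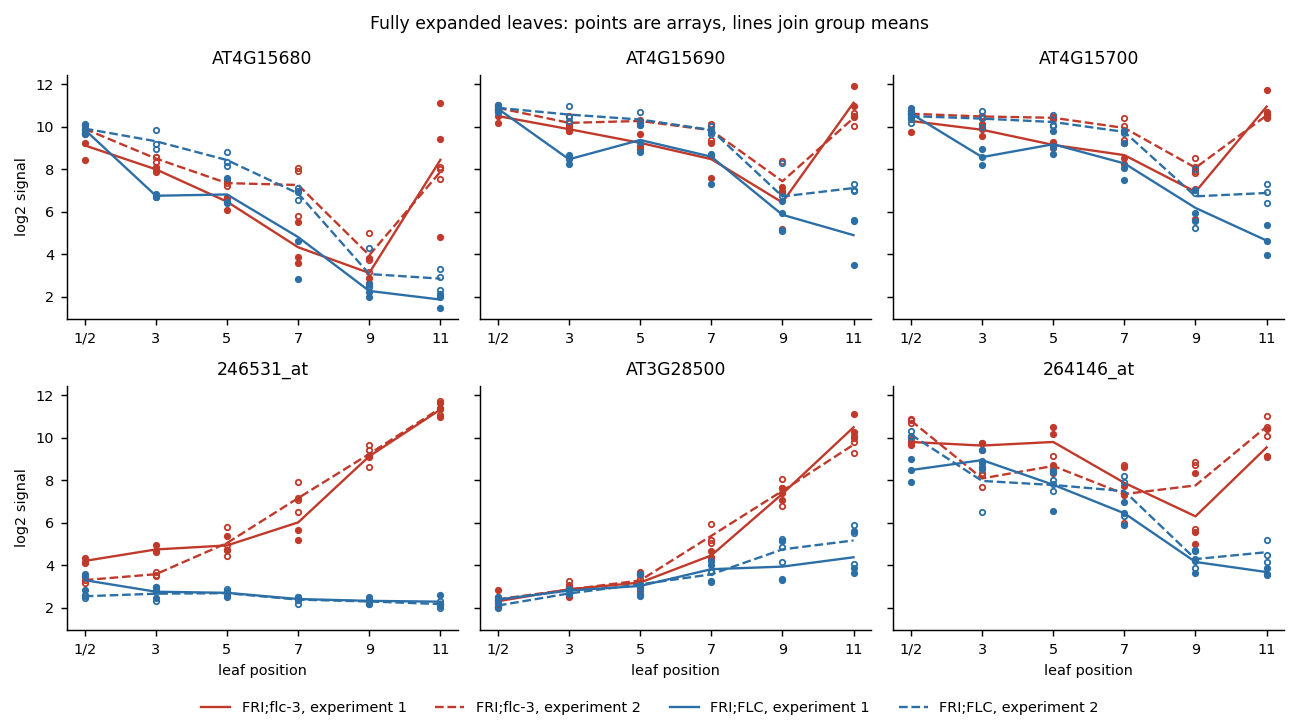
Log2 signal of 6 members in fully expanded leaves against leaf position, with points for arrays and lines through group means for each genotype and experiment. The 3 glutaredoxins decline up to leaf 9 and are high again only in the cauline leaf, whereas 246531_at and AT3G28500 climb through the rosette of the mutant.

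Leaf stage separated the members sharply. In experiment 1, fully expanded leaves 3, 5 and 7 were set against their 1 mm primordia over both genotypes, and 11 members were called higher in the expanded leaf (41.2% of all probe sets) and 3 lower (43.4%), so a call is common here. GLC was the most primordial, with a lowest, median and highest of 2.58, 2.96 and 4.28 in 18 arrays of expanded leaves, against 9.08, 9.66 and 10.13 in 18 arrays of primordia (-6.51 ± 0.10, adjusted p = 1.22e-50). AT3G28500 (-3.90 ± 0.15) and 264146_at (-2.77 ± 0.19) were also lower in expanded leaves, and none of these 3 overlapped between stages. In all, 6 members did not overlap between stages. The share of all probe sets that did not is not given here.

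The glutaredoxins were higher in expanded leaves. AT4G15700 had a lowest, median and highest of 7.50, 9.01 and 10.12 in expanded leaves, against 2.42, 3.17 and 4.18 in primordia (5.73 ± 0.16, adjusted p = 1.47e-37), and AT4G15690 differed by 5.71 ± 0.19. The arrays of these genes did not overlap between stages. AT4G15680 differed by 3.59 ± 0.28, and its ranges overlapped, at 2.86 to 8.11 in expanded leaves against 2.11 to 3.17 in primordia. Cell division genes, of which 2 of 15 listed were measured, averaged 3.64 to 4.34 per array in the cauline leaf of experiment 1 and 2.95 to 3.16 in that of experiment 2, against 9.98 to 10.10 in mutant leaf 11 primordia. The part of young tissue in these results was not tested.

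Leaves past full expansion were older leaves 3, 5 and 7, collected at day 32 in the mutant and day 33 in FRI;FLC. At full expansion, leaves 3, 5 and 7 of experiment 2 were taken at days 23, 26 and 29 in each genotype. Leaf position and time past full expansion can therefore not be told apart. In FRI;flc-3, 3 members were called higher past full expansion than at it (14.5% of all probe sets) and 6 lower (16.1%), and in FRI;FLC 3 were higher (17.9%) and 3 lower (16.8%). The higher ones were BGLU45, CHAT and 255575_at in each genotype. BGLU45 had a lowest, median and highest of 4.52, 8.04 and 9.26 in 9 arrays of mutant leaves past full expansion, against 2.72, 3.43 and 5.14 at full expansion (3.88 ± 0.32, adjusted p = 4.87e-16). The ranges of BGLU45 overlapped, since it was lowest in leaf 7 past full expansion.

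In CHAT the corresponding values were 5.21, 5.84 and 7.59 past full expansion, against 2.23, 2.96 and 3.78 at full expansion in the mutant (3.09 ± 0.31, adjusted p = 4.46e-13). In FRI;FLC they were 2.5, 4.69 and 6.27 past full expansion, against 1.82, 2.01 and 2.19 at it (2.31 ± 0.31, adjusted p = 4.53e-09). CHAT did not overlap between stages in either genotype. The unnamed 255575_at was higher by 2.76 ± 0.29 in the mutant and 2.03 ± 0.29 in FRI;FLC. In BGLU45 the mean was 8.89, 7.98 and 5.64 in mutant leaves 3, 5 and 7 past full expansion, so the 2 lower positions exceeded its cauline means of 6.55 and 6.84. Those positions were also longer past full expansion than leaf 7.

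The 3 glutaredoxins made up the members lower past full expansion in FRI;FLC and 3 of the 6 in the mutant. AT4G15680 had a lowest, median and highest of 2.29, 3.55 and 4.30 past full expansion, against 6.55, 8.36 and 9.84 at full expansion in FRI;FLC (-4.81 ± 0.42, adjusted p = 5.62e-15), without overlap. In FRI;flc-3 its difference was -2.88 ± 0.42. The remaining lower members of the mutant, each by less than 1 log2 unit, were 246531_at (-0.70 ± 0.17), 264872_at (-0.58 ± 0.13) and AGL104 (-0.56 ± 0.17). The calls of 246531_at and AGL104 were lost without replicate 1 (-0.59 with adjusted p = 0.0783, and -0.53 with adjusted p = 0.105), and that of AGL104 also without replicate 2 (-0.41, adjusted p = 0.0838). Of the senescence list, 4 of 21 genes were measured. In the cauline leaf against rosette leaf 11, 0 were called higher and 2 lower in experiment 1, and 2 higher and 1 lower in experiment 2. Of all probe sets 24.5% were called higher and 23.3% lower in experiment 1, and 13.5% and 15.9% in experiment 2. Against mutant leaf 9, 0 were called higher and 1 lower in experiment 1, and 1 higher and 0 lower in experiment 2. There 23.2% and 2.14% of all probe sets were called higher, and the share called lower is not given here. SAG29 of that list differed from rosette leaf 11 by 1.67 ± 0.79 in experiment 1, which was not called (adjusted p = 0.0741), and by 6.78 ± 0.79 in experiment 2. From mutant leaf 9 it differed by 0.87 ± 0.79 and 0.08 ± 0.79, and neither was called. SAG101 (-1.84 ± 0.30 and -0.76 ± 0.30) was called lower than in rosette leaf 11 in both experiments, and WRKY53 in experiment 1 (-2.79 ± 0.56) but not in experiment 2 (-1.28 ± 0.56, adjusted p = 0.0758).

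**Figure D5:**
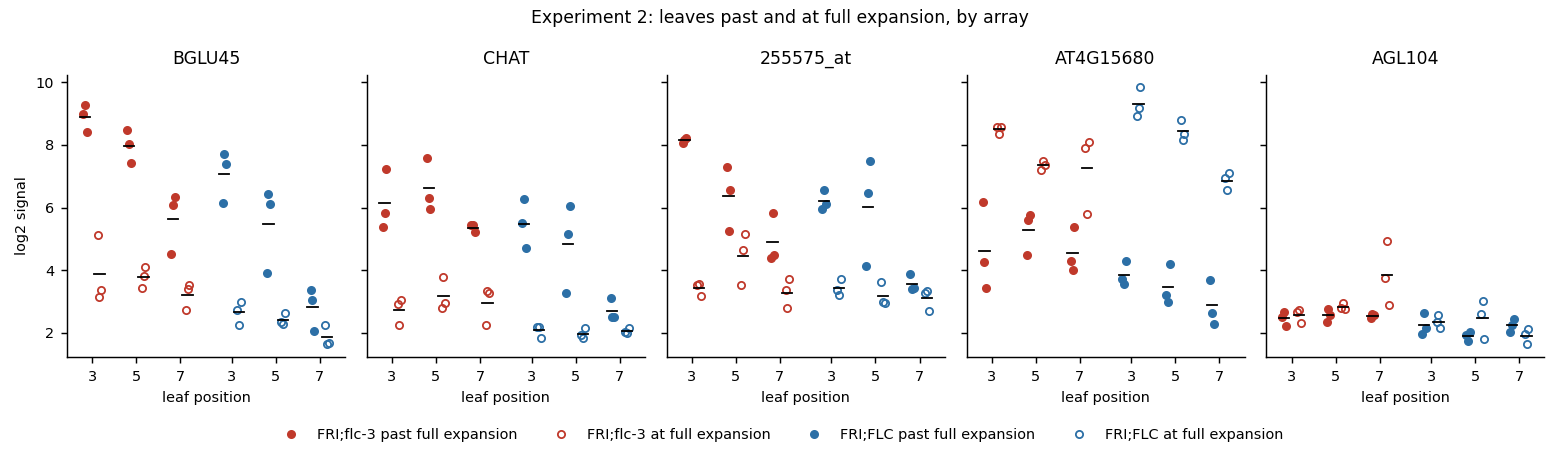
Log2 signal of 5 members in leaves 3, 5 and 7 of experiment 2, past full expansion (filled) and at full expansion (open), with points for arrays, bars for group means, FRI;flc-3 in red and FRI;FLC in blue. BGLU45, CHAT and 255575_at lie higher past full expansion, AT4G15680 lies lower, and AGL104 hardly separates.

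In shoot apices few members were called by genotype. Mutant apices were collected up to day 11 only, before the leaf 11 primordia of day 18. At days 9 and 11, 2 members were called higher in FRI;flc-3 than in FRI;FLC apices (0.393% of all probe sets) and 0 lower (0.285%), and at day 4, 0 were called higher (0.957%) or lower (0.926%). AT3G28500 read 6.83, 6.51 and 6.53 at day 9 and 6.72, 7.13 and 6.78 at day 11 in the mutant, against 5.52, 5.92 and 5.12 at day 9 and 4.97, 4.78 and 4.81 at day 11 in FRI;FLC (1.56 ± 0.19, adjusted p = 9.44e-06). The genotypes did not overlap on either day, while at day 4 the means were 7.81 in the mutant and 7.60 in FRI;FLC. For 246531_at the difference was 0.40 ± 0.09 (adjusted p = 0.0208), with overlapping arrays near the floor. It was lost when any of replicates 1 to 3 was left out, at 0.28 to 0.50.

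The change of the genotype difference between day 4 and day 11 was called in the same 2 members, at 1.81 ± 0.38 for AT3G28500 (adjusted p = 0.0207) and 0.77 ± 0.18 for 246531_at (adjusted p = 0.0368), against 0.186% of all probe sets called in this direction. Both calls were lost when any of replicates 1 to 3 was left out, with values of 1.62 to 1.92 for AT3G28500 and 0.51 to 0.92 for 246531_at. The 264872_at signal, 9.03 or more on average in the cauline leaf, averaged 2.48 at most in any group of apices. AGL104 averaged at most 1.73 there, and CHAT 1.98. The 1 mutant array at day 6 read 7.48 for 247869_at, against 6.35 and 3.75 in FRI;FLC apices of that day, and no test was made of it.

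With age, FRI;FLC apices changed in 7 members between day 4 and day 21. Of the members 4 were called higher at day 21 (25.2% of all probe sets) and 3 lower (25.0%). The unnamed 255575_at read 7.83, 7.38 and 7.65 at day 21, against 1.82, 1.55 and 1.38 at day 4 (6.04 ± 0.31, adjusted p = 7.44e-15). GLC read 4.71, 5.00 and 4.81 at day 21, against 8.38, 8.29 and 8.30 at day 4 (-3.49 ± 0.32, adjusted p = 7.07e-10). Neither overlapped between the days. AT4G15700 (1.22 ± 0.24), BGLU45 (1.19 ± 0.26) and AT4G15680 (1.15 ± 0.37) were higher, and 264146_at (-1.49 ± 0.20) and 264872_at (-0.54 ± 0.14) were lower. The AT4G15680 call was lost without replicate 2 (0.82, adjusted p = 0.153) or replicate 3 (0.90, adjusted p = 0.145).

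In apices of the FRI;FLC;35S::miR156mimic line at day 6, 7 members were called higher than in FRI;FLC apices of that day (17.7% of all probe sets) and 2 lower (14.2%). AT3G28500 read 8.83, 9.31 and 8.81 in the mimic line, against 4.26 and 4.42 in FRI;FLC (4.65 ± 0.30, adjusted p = 3.28e-12). AT3G14395 read 6.02, 6.80 and 5.95 in the mimic line, against 3.03 and 2.5 in FRI;FLC (3.49 ± 0.46, adjusted p = 2.46e-06), and 253309_at read 5.70, 5.71 and 5.96, against 3.00 and 2.1 (3.24 ± 0.25, adjusted p = 1.88e-10). All 3 were without overlap. AT3G28500, AT3G14395 and 253309_at were also called higher by genotype in the leaf 11 primordium. In contrast, 246531_at, with the largest difference there, was not called in the mimic apices (-0.31 ± 0.14, adjusted p = 0.0877), and 264872_at was lower. In FRI;FLC apices of day 6 the 246531_at and 264872_at means were 2.15 and 2.26. Both lie near the floor, where the size of a difference is uncertain. The mimic is driven by 35S, which is active in most cells of the plant.

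The 2 FRI;FLC arrays of day 6 were those with the lowest correlation, so the mimic line was also set against the mean of FRI;FLC days 4 and 9, a choice made after seeing the data. AT3G28500 (2.42 ± 0.23), AT3G14395 (2.94 ± 0.36) and 253309_at (3.45 ± 0.20) kept their calls. GLC, 2.5 ± 0.36 above the FRI;FLC apices of day 6, was 1.41 lower than the mean of days 4 and 9 (-1.41 ± 0.28, adjusted p = 0.000592), so its direction depends on the control. The differences of 264146_at, AT4G15680 and 255575_at fell in size to 0.50, 0.98 and -0.85 and kept their calls, against 2.13, 1.86 and -1.41 with day 6. Those of AT4G15700 (0.32, adjusted p = 0.273) and 264872_at (-0.32, adjusted p = 0.0612) lost theirs, against 1.01 and -0.63 with day 6. Against day 6, the calls of AT4G15680 (1.24, adjusted p = 0.148), AT4G15700 (0.89, adjusted p = 0.223) and 264872_at (-0.41, adjusted p = 0.367) were lost without replicate 1, and that of 255575_at without replicate 2 (-0.84, adjusted p = 0.0715). Of the members whose 2 highest groups were the cauline ones, 246531_at (-0.21 ± 0.11), CHAT (-0.08 ± 0.10) and AGL104 (-0.18 ± 0.13) were not called in the mimic apices against this control. At days 4 and 9 their FRI;FLC means were 2.15 and 1.93, 1.78 and 1.71, and 1.64 and 1.61. These lie near the floor, so the sizes of their differences are uncertain.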

How the data were processed

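Biotin-labelled targets made from polyA RNA were hybridised to oligonucleotide arrays, 1 per replicate. The authors deposited log2 signals per probe set, and GCRMA and MAS5 are named per the submitters' processing notes. The sources used here name neither versions nor filters. The deposited log2 values were used as they are, for 156 arrays in 53 groups. The number of arrays limits the precision. Names came from the platform annotation, in which 10918 probe sets had 1 gene and 407 had several. RefSeq annotation of TAIR10.1 was used only for names and for which genes are neighbours. No sequences were used here.

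Group means by the rule gave the members (Python 3.11.15, pandas 2.3.3). Linear models with 1 coefficient per group were fitted in limma 3.58.1 (R 4.3.3) to the apices (30 arrays), primordia (36), leaves (90) and, for leaf stage, primordia with expanded leaves of experiment 1 (72). Tests were two-sided moderated tests with a trended prior, Benjamini-Hochberg adjusted over 19324 probe sets and called at 0.05. They were also run on simulated data, and the outcome is not given here. FRI;FLC apices at day 6 have 2 arrays, assumed to vary like other groups.

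The members and lists were chosen with earlier results of these data known. Members named in each comparison were the called ones with the largest differences, and members with 1 gene, the closest to the threshold and every fixed-list gene were also eligible. A planned count by product-name class could not be made, because the tables used here hold no product names. FLC itself was not analysed here. Alternatives were quantile normalization, a mean signal above the median, a prior without trend, fits to the compared groups only, a replicate block, omission of each replicate, other thresholds and group medians.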

Additional observations from a re-analysis of the deposited data

Results flagged for a closer look

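A test of the difference between genotype effects at different leaf positions or days called 11 results. In primordia 13.2% of all probe sets were called in the positive direction and 8.98% in the negative. In apices the shares were 0.186% and 0.290%. In 1 mm primordia, the FRI;flc-3 minus FRI;FLC difference at leaf 11 exceeded the mean difference at leaves 3, 5 and 7 by 6.79 log2 in 246531_at, 5.08 in 253309_at, 3.65 in AT3G14395, 3.49 in 264872_at, 1.93 in CHAT, 1.57 in AT3G28500, 1.27 in AT4G15690 and 0.52 in BGLU45, and it was -0.78 in GLC. The BGLU45 and GLC results lost their calls without replicate 1 (0.46 and -0.75) or replicate 3 (0.38 and -0.62). BGLU45 was also near the floor, at means of 2.33 in mutant and 1.74 in FRI;FLC leaf 11 primordia. In apices, the genotype difference at day 11 exceeded that at day 4 by 1.81 in AT3G28500 and 0.77 in 246531_at, and both calls were lost when any of replicates 1 to 3 was left out. What these differences arise from was not tested.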

How the results depend on the processing

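Over the planned and added settings, 80 of 111 called results of single members kept their call under every setting that tested them, apart from the filter on mean signal. Leaving out a replicate removed the call of 30, fits to the compared groups only that of 6, the prior without trend that of 2 and quantile normalization that of 1. The 1 result that changed direction was GLC in mimic apices, -1.41 with FRI;FLC days 4 and 9 as control.

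The rule gave 35 members at a threshold of 1.5 log2 and 9 at 2.5, 18 with group medians and 17 after quantile normalization, and 16 to 24 without 1 replicate. GLC was lost without replicate 1 or 3, 253309_at without replicate 1, 264146_at and 247869_at without replicate 2, and with medians 264146_at, 253309_at and 246531_at.

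A mean signal above the median left 3 members to test, so their counts fell by construction. The members called higher and lower were then 2 and 0 for leaf 11 primordia by genotype, 0 and 0 for leaf 11 against leaf 9, 1 and 0 for the position interaction, 1 and 1 for FRI;FLC apex age, 2 and 0 for the mimic, 0 and 3 for leaf position in FRI;flc-3, 0 and 3 for that in FRI;FLC, 0 and 2 past full expansion in the mutant, and 2 and 1 for leaf stage. Higher counts were 0 for apices by genotype, 0 for the apex interaction, 1 for leaves 3 to 7 by genotype, 0 past full expansion in FRI;FLC and 0 for leaf 9 against leaves 1/2 in primordia of each genotype.

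For apices by genotype, quantile normalization gave 1 higher and the compared groups only 1 lower. The apex interaction had 1 higher with the prior without trend or the compared groups only. With the compared groups only the mimic gave 4 higher and 0 lower, and leaf position in FRI;flc-3 5 higher. The causes were not tested. The shares of all probe sets called under the other settings are not given in this section. A shift in a member count can therefore not be told from a general gain or loss of calls.

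Without 1 replicate, the lower count was 0 to 1 for the primordium interaction, 3 to 5 for FRI;FLC apex age, 1 to 3 for the mimic, 3 to 5 for leaf position in FRI;flc-3 and 1 to 3 for leaf 9 in FRI;FLC primordia. The higher count was 1 for apices by genotype, 0 for the apex interaction, 3 to 5 for leaves 3 to 7 and 1 to 2 for leaf position in FRI;FLC. Same-numbered arrays correlated at -0.07 to 0.06 in leaf 11 primordia. At days 9 and 11, 10 of 12 apex arrays correlated best, on average, with arrays of their own number, at -0.036 to 0.433 over pairs, as did 12 of 18 mutant leaves past and at full expansion, at -0.385 to 0.787. In no comparison did every pair exceed 0.1, so the numbers were not taken as pairs. With the replicate block 9 members were higher and 1 lower in leaf 11 primordia by genotype, as without it, and the block removed the call of 0 results.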
